A study of Homo sapiens with 18 samples.

Results

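The comparison described here sets 3 arrays of cells that received a tethered form of wild-type p53 (tethered WTp53) against 3 arrays of cells that received wild-type p53 alone (WTp53), both from experiments d, e and f. The 6 arrays were chosen by their titles out of 18 in the series, and all 19460 probe sets with exactly 1 gene symbol were tested. All arrays came from NCI-H1299, a human non-small cell lung carcinoma line without endogenous p53, so the p53 in each group is the transfected one. Cells were transfected with Lipofectamine 2000 and a pIRES-2EGFP plasmid, sorted for green fluorescence, and harvested for RNA at 40 hours. The third group of the same experiments, 3 arrays of cells with the empty vector, gives the level without p53. The titles name tethered WTp53, whereas the transfection field of these 3 arrays reads ΔNp53:WTp53, which is the construct of the series' other experiments (0, 4 and 5). The title was used, and every statement on the tethered construct rests on it. The sources used here do not say how the construct was joined. They call experiments d, e and f controls without stating that these were separate transfections, so p-values measure the spread between these arrays, which may be technical.

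The p53 protein acts as a tetramer that binds DNA and switches on genes for cell cycle arrest, apoptosis, DNA repair and metabolism. Its best known target, CDKN1A, encodes the p21 inhibitor of cyclin-dependent kinases. Through p21 and the DREAM repressor complex, p53 also lowers genes of DNA replication and mitosis, many of which carry a short promoter element called the cell cycle genes homology region (CHR). N-terminally shortened p53 isoforms lack part of the transactivation region and can enter mixed tetramers with the full-length protein, and forms joined in a single chain are used to fix the make-up of such tetramers.

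Values are log2 intensities that the authors normalized with RMA, a method that summarizes the probes of a set into 1 value per array. Array medians over all deposited rows were between 7.06 and 7.07 for tethered WTp53 and between 7.01 and 7.04 for WTp53. Arrays of a group correlated at 0.997 to 0.999 over probe sets, and tethered with WTp53 arrays at 0.992 to 0.994. The median SD within a group was 0.07 for tethered WTp53, 0.05 for WTp53 and 0.06 for vector. All 3 WTp53 values were identical to 2 decimals in 579 probe sets, against 361 for tethered WTp53. With the spread estimated without the WTp53 arrays, 5431 probe sets were called in place of 6213. Among the 234 probe sets that rose at least 1.5-fold, tethered array f was the nearest to WTp53 in 185. Among the 127 that fell as much, the nearest was f in 66, e in 47 and d in 14. Their median differences from the WTp53 mean were -0.60, -0.64 and -0.77. Counts without array f are given where the larger of a list's counts, of rises or of falls, differs by more than 1.5 times.

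Tethered WTp53 and WTp53 differed at many genes by small amounts. In limma's fit, 6213 of 19460 probe sets (31.9%) had an adjusted p under 0.05; 2815 rose (14.5%) and 3398 fell (17.5%) in tethered WTp53. A change of at least 1.5-fold was seen in 361 of these (1.86%), with 234 rises (1.2%) and 127 falls (0.653%), and the 3 tethered values did not overlap the 3 WTp53 values in any of the 361. At 2-fold or more, 23 rose (0.118%) and 8 fell (0.0411%). The median difference over all probe sets was 0.02. Fitted alone, the 9731 probe sets at or above the median level had 2104 rises and 3329 falls, with a median of -0.04. By separation alone, all 3 tethered arrays lay above all 3 WTp53 arrays in 3899 probe sets (20%) and below them in 4323 (22.2%). A single probe set with 3 arrays against 3 cannot fall below an exact two-sided permutation p of 0.1. When the spread was shared over all 18 arrays of the series, 1934 probe sets were called, 798 up and 1136 down. List counts given below for that spread stand beside these counts of 19460.

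**Figure D1:**
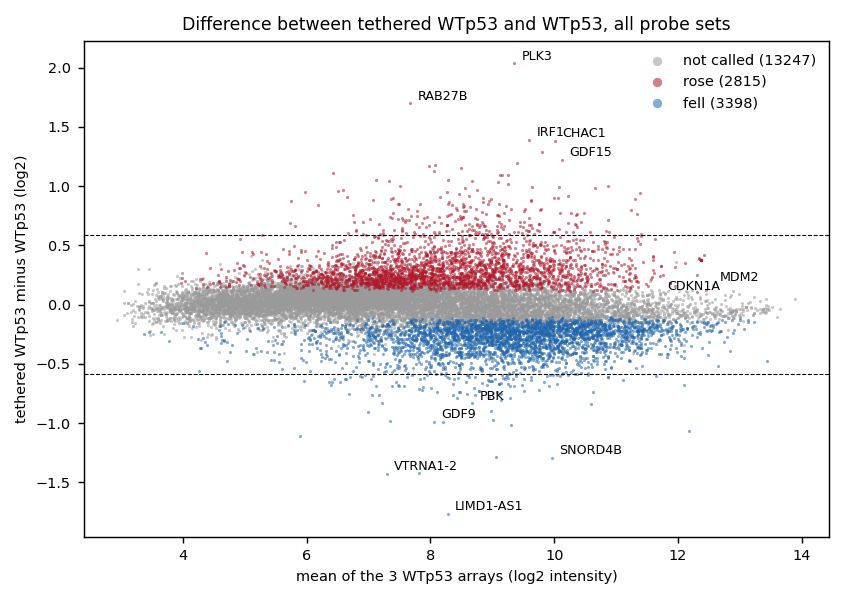
Each point is 1 of 19460 probe sets, with the mean of the 3 WTp53 arrays (log2 intensity) on the x axis and the tethered WTp53 minus WTp53 difference (log2) on the y axis; dashed lines mark 1.5-fold. The 2815 probe sets that rose and 3398 that fell mostly lie inside the dashed lines, and PLK3 stands farthest up at 2.04.

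For comparison with the level lacking p53, WTp53 against vector gave 7072 called probe sets (36.3%) and tethered WTp53 against vector gave 9182 (47.2%). These comparisons share arrays with the main one and with each other, so the values are set side by side only. Rises made up 17.7% and falls 18.6% of probe sets for WTp53 against vector, and 21.2% and 26% for tethered WTp53 against vector.

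Both forms of p53 raised the classical targets CDKN1A and MDM2 over vector, and these 2 genes were not called different between the forms. CDKN1A was at 11.83, 11.81 and 11.77 in the tethered arrays d, e and f, at 11.72, 11.71 and 11.70 in the WTp53 arrays, and at 8.67, 8.44 and 8.63 in the vector arrays. The tethered values lay just above the WTp53 values, by 0.09 ± 0.06 (difference ± SE of the fit, n = 3 arrays a group here and below; adjusted p = 0.241). MDM2, the ubiquitin ligase that degrades p53, was at 12.65, 12.90 and 12.64 with tethered WTp53, at 12.53, 12.58 and 12.58 with WTp53, and at 10.53, 10.61 and 10.23 with vector. Its difference was 0.17 ± 0.10 (adjusted p = 0.213).

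Some other p53 targets were higher with tethered WTp53 than with WTp53. Over all 18417 genes, each represented by its brightest probe set, 14.7% rose and 17.4% fell. These shares are the background for every list count below. Of 28 measured targets for arrest and feedback, 10 rose and 3 fell, with a median difference of 0.11. Of 21 apoptosis targets, 11 rose and 1 fell (median 0.24), and of 21 targets for DNA repair and metabolism 9 rose and 0 fell (median 0.13). The lists were assembled with results of these arrays known. Against vector, the same 3 lists had 25, 18 and 14 genes raised by WTp53 (17.7% of all probe sets rose in that comparison), with medians of 1.02, 0.69 and 0.71. The 3 lists had 5, 5 and 4 rises between the p53 forms with the spread of all 18 arrays, beside 798 of all 19460 probe sets.

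Among the arrest genes, PLK3, a stress-responsive kinase of the polo family, had the largest rise of all genes. Its values were 11.47, 11.50 and 11.21 with tethered WTp53, 9.30, 9.37 and 9.40 with WTp53, and 7.78, 7.61 and 7.65 with vector. The 3 groups were far apart, and tethered WTp53 exceeded WTp53 by 2.04 ± 0.08, or 4.10-fold (adjusted p = 4.72e-07). GDF15, a secreted stress cytokine, read 11.54, 11.36 and 11.12, against 10.08, 10.15 and 10.13 with WTp53 and 7.51, 7.46 and 7.59 with vector. Its difference was 1.22 ± 0.09 (adjusted p = 1.56e-05). SFN, which encodes stratifin and holds cyclin B complexes in the cytoplasm, rose by 0.68 ± 0.07. The falls in this list were SESN1 by 0.39, RCHY1 by 0.34 and SESN2 by 0.27. SESN1 and SESN2 encode sestrins, which restrain mTORC1, and RCHY1 encodes a ubiquitin ligase for p53. SESN1 was at 9.72, 9.67 and 9.72 with tethered WTp53, at 10.08, 10.06 and 10.14 with WTp53, and at 7.23, 7.25 and 7.34 with vector.

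The apoptosis genes that rose belong to both the receptor and the mitochondrial branch. IGFBP3, a secreted binding protein for insulin-like growth factors, was at 9.83, 9.65 and 9.77 with tethered WTp53 and at 8.87, 8.79 and 8.88 with WTp53. The vector arrays read 8.92, 8.91 and 8.89, so WTp53 lay just below vector, and tethered WTp53 was 0.90 ± 0.05 above WTp53 (adjusted p = 5.8e-06; 0.234 with the spread of all 18 arrays). APAF1, the scaffold of the apoptosome, was at 10.46, 10.48 and 10.36, against 9.70, 9.78 and 9.78 with WTp53 and 7.67, 7.65 and 7.49 with vector. That is a rise of 0.68 ± 0.06 (adjusted p = 3.32e-05). The death receptors FAS (0.34) and TNFRSF10B (0.31) and the executioner caspase CASP6 (0.50) also rose. The BH3 genes BBC3 and PMAIP1 differed by 0.10 and 0.12 and BAX by 0.11, and these 3 were not called. SIVA1 fell by 0.36. In the repair and metabolism list the largest rise was DDB2, a sensor of ultraviolet damage, at 0.49 ± 0.06, followed by the potassium-chloride cotransporter gene SLC12A4 at 0.41 and the autophagy modulator DRAM1 at 0.40.

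The 15 largest rises of all genes, some of them list members, spanned 1.09 to 2.04. RAB27B, a small GTPase of vesicle secretion, was at 9.49, 9.34 and 9.30 with tethered WTp53, at 7.58, 7.79 and 7.66 with WTp53 and at 6.28, 6.17 and 6.41 with vector. The difference was 1.70 ± 0.08 (adjusted p = 1.35e-06). IRF1, a transcription factor of the interferon response, was at 11.04, 11.01 and 10.91, above 9.54, 9.62 and 9.62 with WTp53 and 8.38, 8.16 and 8.40 with vector. It rose by 1.39 ± 0.07 (adjusted p = 2.07e-06). For both genes the groups formed separate steps, with vector lowest.

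CHAC1, an enzyme that degrades glutathione and a known ATF4 target, behaved otherwise. Its tethered values were 11.44, 11.41 and 11.34, while WTp53 read 10.02, 10.04 and 9.98 and vector 10.07, 10.00 and 10.09. WTp53 and vector thus nearly coincided, and tethered WTp53 stood 1.38 ± 0.04 above WTp53 (adjusted p = 2.69e-07). The rest of the 15 were the receptor kinase gene MERTK (1.29), the NKG2D ligand gene ULBP3 (1.19), LRRTM1 (1.18), the activin receptor ACVR1C (1.17), ADAP2 (1.15), the prokineticin receptor PROKR1 (1.13), the fatty acid elongase ELOVL3 (1.11), the arginase ARG2 (1.10), CORO1A (1.09) and TMEM63A (1.09), besides GDF15. Array f was the tethered array nearest to WTp53 in 13 of the 15, and without it the differences were 1.06 to 2.13.

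**Figure D2:**
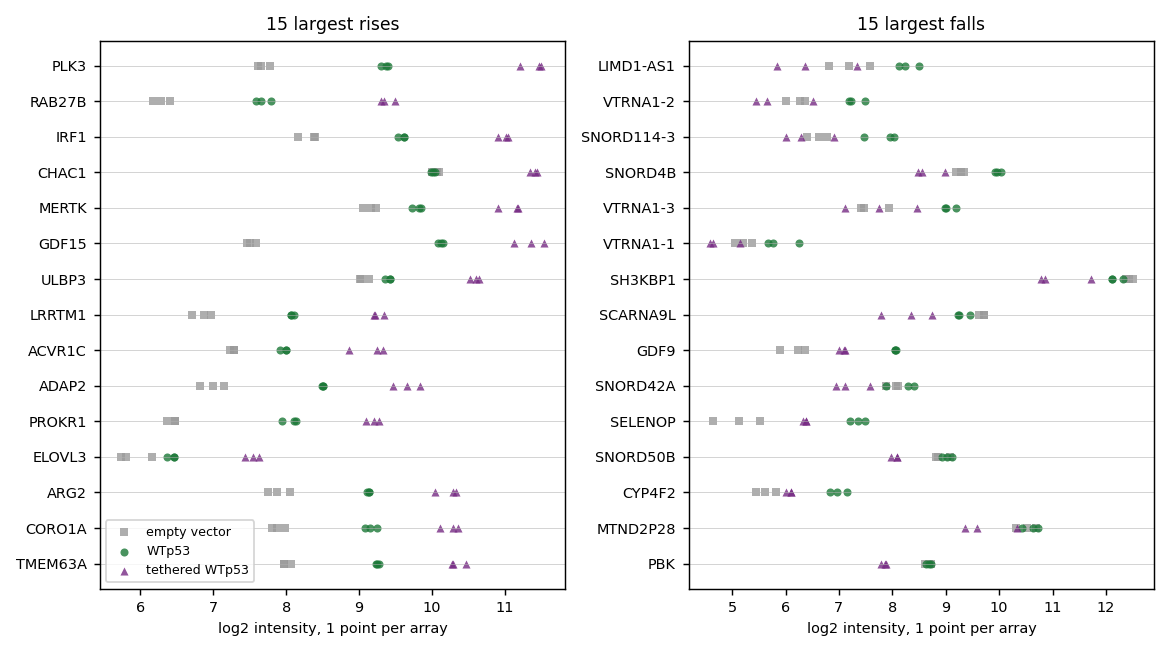
Log2 intensity on each of the 9 arrays for the 15 genes with the largest rises (left) and the 15 with the largest falls (right), as squares for empty vector, circles for WTp53 and triangles for tethered WTp53. For CHAC1 the WTp53 and vector points coincide near 10, whereas for PLK3 the 3 groups form 3 steps; the tethered points of the vault RNAs and LIMD1-AS1 are widely spread.

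Immediate-early genes and the genes that damp MAP kinase signalling formed the group with the highest median. Immediate-early genes encode transcription factors such as FOS, JUN and EGR1 that growth factor signals switch on within minutes, and the dual-specificity phosphatases (DUSP), Sprouty and SPRED proteins feed back on the ERK, JNK and p38 kinases. Of 29 measured genes 19 rose (65.5%) and 1 fell, beside 14.7% and 17.4% of all genes. Of the rises 9 were at least 1.5-fold, beside 1.2% of all probe sets. The median difference was 0.28, and 0.33, 0.33 and 0.30 on the tethered arrays d, e and f taken singly. JUNB was at 11.87, 11.87 and 11.88 with tethered WTp53, at 10.83, 10.89 and 10.89 with WTp53 and at 10.36, 10.28 and 10.41 with vector, a rise of 1.0 ± 0.04 (adjusted p = 1.32e-06). ZFP36, which destabilizes cytokine mRNAs, rose by 0.99 ± 0.06, DUSP1 by 0.76 ± 0.05 and DUSP5 by 0.72 ± 0.06. The spread of all 18 arrays left 12 of the 29 called higher.

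EGR1 showed a different order of groups. It was at 12.13, 12.13 and 12.33 with tethered WTp53, at 11.31, 11.23 and 11.37 with WTp53, and at 12.29, 12.29 and 12.29 with vector. The tethered and vector values overlapped and WTp53 lay below both; tethered WTp53 exceeded WTp53 by 0.89 ± 0.06 (adjusted p = 1.26e-05). MYC (0.47) and JUN (0.43) also rose, while FOS at 0.11, FOSB at -0.21 and DUSP6 at -0.01 were not called. The 1 gene that fell was SPRED1, by 0.18. Over the whole DUSP family, 9 of 23 rose and 1 fell (median 0.12), with DUSP16 at 0.66; 3 rose with the spread of all 18 arrays.

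Genes of mitosis fell together. Of 29 measured G2/M genes 26 fell (89.7%) and 0 rose, beside 17.4% and 14.7% of all genes. The median difference was -0.38, and -0.37, -0.37 and -0.38 on the single tethered arrays d, e and f. CCNB2, a B-type cyclin that drives entry into mitosis, was at 10.77, 10.80 and 10.80 with tethered WTp53 against 11.35, 11.32 and 11.30 with WTp53 and 11.41, 11.36 and 11.38 with vector. WTp53 lay just below vector here and tethered WTp53 well below both, with a difference from WTp53 of -0.53 ± 0.04 (adjusted p = 1.48e-05). MAD2L1, a component of the spindle checkpoint, was at 9.0, 9.02 and 9.04 with tethered WTp53, at 9.69, 9.55 and 9.65 with WTp53 and at 9.60, 9.52 and 9.52 with vector. It fell by 0.61 (SE 0.05, adjusted p = 2.35e-05). CCNB1 fell by 0.50, PLK1 by 0.43 and the phosphatase CDC25B by 0.39. BUB3 (0.12), CDC20 (0.02) and CDC25C (-0.11) were not called. For the same list WTp53 against vector gave 13 falls and 2 rises and a median of -0.11 (18.6% of all probe sets fell in that comparison). In the fit with a spread shared over all 18 arrays, 4 of the 29 were called lower, beside 1136 of all 19460 probe sets.

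The promoters of these genes were searched for the CHR element, because it marks repression of mitotic genes through p21 and DREAM. Windows of 300 bases (250 before and 50 after the first listed start) came from RefSeq on GRCh38.p14 and were available for 14239 of the measured genes. TTTGAA on either strand was found in 1696 of these (11.9%), in 14 of 23 G2/M promoters (60.9%), in 1 of 25 promoters of G1/S and replication genes (4%), in 17 of 73 promoters of genes that fell at least 1.5-fold (23.3%) and in 14 of 191 promoters of genes that rose as much (7.33%). Of the G2/M genes with the letters 13 of 14 fell (median -0.45), and of those without them 8 of 9 fell (median -0.29). Over all genes with a window, 19.1% of the 1696 with the letters fell and 18.3% of the 12543 without them. A match of letters is a description of the window. The G2/M list holds known mitotic genes, many of which carry the element, so its share of matches does not bear on the difference between the p53 forms. The promoters of MAD2L1 (chr4:120066799-120067098, minus strand) and CCNB2 (chr15:59104896-59105195, plus strand), the mitotic genes described above, are shown with the CHR letters in capitals, beside that of PLK3 (chr1:44800127-44800426, plus strand), the largest rise, whose window holds none:
MAD2L1: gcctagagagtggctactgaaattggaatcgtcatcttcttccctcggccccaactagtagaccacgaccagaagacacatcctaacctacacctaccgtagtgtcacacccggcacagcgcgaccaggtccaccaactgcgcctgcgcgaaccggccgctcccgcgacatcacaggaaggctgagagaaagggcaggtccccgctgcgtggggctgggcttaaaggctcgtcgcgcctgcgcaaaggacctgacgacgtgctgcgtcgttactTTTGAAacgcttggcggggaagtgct
CCNB2: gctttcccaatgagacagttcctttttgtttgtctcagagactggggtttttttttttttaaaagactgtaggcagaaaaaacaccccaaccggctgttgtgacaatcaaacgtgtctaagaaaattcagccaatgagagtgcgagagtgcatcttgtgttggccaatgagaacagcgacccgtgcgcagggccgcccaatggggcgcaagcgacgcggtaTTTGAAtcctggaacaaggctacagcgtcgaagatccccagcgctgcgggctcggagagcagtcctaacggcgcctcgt
PLK3: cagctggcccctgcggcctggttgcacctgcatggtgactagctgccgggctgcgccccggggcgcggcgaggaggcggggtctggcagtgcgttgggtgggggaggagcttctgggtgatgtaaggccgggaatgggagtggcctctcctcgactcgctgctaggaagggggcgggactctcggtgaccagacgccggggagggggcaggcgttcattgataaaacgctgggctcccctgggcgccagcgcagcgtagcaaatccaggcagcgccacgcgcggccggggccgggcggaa

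Genes of the preceding phases moved the same way. The list for G1/S and replication held 29 measured genes. Of these 25 fell (86.2%, beside 17.4% of all genes) and 1 rose, with a median of -0.32. POLE2, a subunit of DNA polymerase epsilon, was at 8.04, 7.99 and 7.98 with tethered WTp53, at 8.74, 8.69 and 8.69 with WTp53 and at 9.09, 8.99 and 9.01 with vector. The 3 groups did not overlap, and the difference was -0.70 ± 0.04 (adjusted p = 7.48e-06; 0.109 with the spread of all 18 arrays). MCM10, a replication initiation factor, fell by 0.64 ± 0.06. All 6 subunits of the MCM2 to MCM7 helicase fell, by 0.21 (MCM7) to 0.59 (MCM3). RRM1, a subunit of ribonucleotide reductase, rose by 0.16, and PCNA, a replication clamp and p53 target, differed by -0.03 and was not called. With the spread of all 18 arrays, 2 of the 29 were called lower, a share near the 1136 of all 19460 probe sets.

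The Fanconi and homologous recombination genes, which repair crosslinks and double-strand breaks in S phase, had 14 falls and 0 rises in 19. The falls were 73.7% of the list, beside 17.4% of all genes. The exonuclease gene EXO1 was the lowest, at 8.23, 8.13 and 8.36 with tethered WTp53 against 8.93, 8.84 and 8.98 with WTp53 and 9.26, 9.25 and 9.25 with vector (difference -0.68 ± 0.06, adjusted p = 4.12e-05; 0.116 with the spread of all 18 arrays). FANCB fell by 0.57 and the helicase gene BLM by 0.38. Of 18 centromere proteins (CENP) 15 fell (83.3%) and 0 rose, led by CENPW (-0.74) and CENPU (-0.68). Of 13 subunits picked from the constitutive centromere network, 11 fell. CENPX, which was not in that set, fell by 0.27. With the spread of all 18 arrays, 1 of the 19 repair genes and 5 of the 18 CENP genes were called lower. The former is near the share of all probe sets in that fit (1136 of 19460). CENPW was at 7.76, 7.68 and 7.77 with tethered WTp53, at 8.42, 8.51 and 8.49 with WTp53 and at 7.69, 7.88 and 7.88 with vector, so the tethered and vector values overlapped.

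The replication-dependent histone genes, whose mRNAs are made in S phase and end without a poly(A) tail, had 13 falls and 1 rise in 39 (median -0.13). The falls were 33.3% of the list, beside 17.4% of all genes. The counts of falls were 7 and 8 without WTp53 array e or d, and 6 without tethered array d. In the fit with 1 spread over all 18 arrays 1 fell. The largest fall was H3C12, at -0.55 ± 0.08. For the same list WTp53 against vector gave 34 falls and a median of -0.62 (18.6% of all probe sets fell in that comparison). Of 24 genes of progeroid syndromes and telomeres 14 fell and 1 rose (median -0.16), with lamin B1 (LMNB1) at -0.37, the dyskerin gene DKC1 at -0.34 and the protease gene SPRTN at 0.33; 2 fell with the spread of all 18 arrays.

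**Figure D3:**
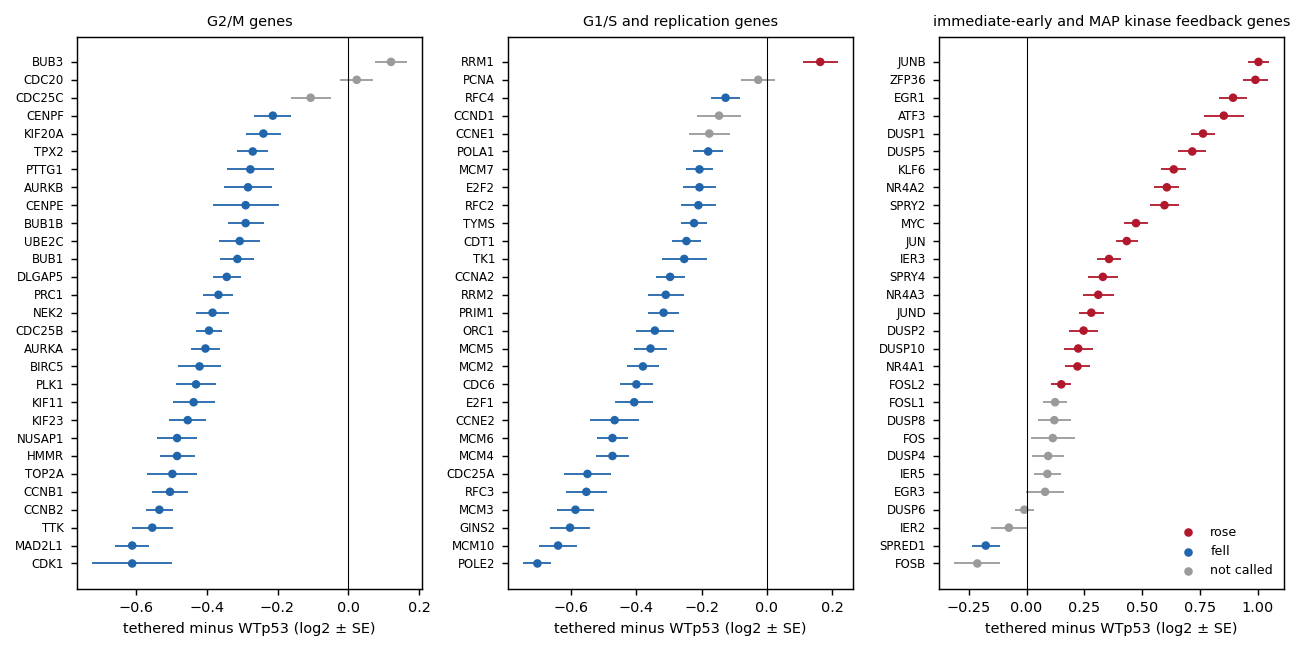
Tethered WTp53 minus WTp53 (log2, point) with the SE of the fit (bar) for each measured gene of the G2/M, G1/S and replication, and immediate-early lists, in red where it rose, blue where it fell and grey where it was not called. In the cell cycle panels 26 of 29 and 25 of 29 points are blue and left of 0; in the immediate-early panel 19 of 29 are red, up to JUNB at 1.0.

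Nuclear-encoded mitochondrial genes were lower with tethered WTp53. Complex I, the first proton pump of the respiratory chain, is built from many small subunits. Of 33 measured NDUF genes 27 fell (81.8%, beside 17.4% of all genes) and 0 rose. The median was -0.25, and -0.21, -0.30 and -0.22 on single arrays. NDUFB6 was at 8.32, 8.35 and 8.36 with tethered WTp53, at 8.94, 8.97 and 9.06 with WTp53 and at 8.70, 8.58 and 8.79 with vector. Tethered WTp53 lay below both other groups, 0.65 under WTp53 (difference -0.65 ± 0.06, adjusted p = 3.98e-05). NDUFA2 fell by 0.67 and NDUFB3 by 0.55. Over a list of 32 oxidative phosphorylation genes, which shares subunits with this family, 23 fell and 1 rose (median -0.22). For the 33 NDUF genes WTp53 against vector gave 7 rises and 3 falls, with a median of 0.06. Of all probe sets 17.7% rose and 18.6% fell in that comparison, so the rises were near the share of all. The spread of all 18 arrays left 18 of the 33 NDUF genes called lower.

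Transcripts for proteins that build mitochondria fell as well. Of 73 genes for mitochondrial ribosomal proteins 48 fell (65.8%, beside 17.4% of all genes) and 1 rose (median -0.21). The rise was MRPL49, at 11.81, 11.76 and 11.76 with tethered WTp53, 11.31 on all 3 WTp53 arrays, and 10.61, 10.64 and 10.73 with vector (0.47 ± 0.04, adjusted p = 5.03e-05). The list for mitochondrial biogenesis and dynamics, with 33 genes, had 19 falls and 1 rise (median -0.15). TFAM, which packages and transcribes mitochondrial DNA, was at 10.35, 10.38 and 10.42 with tethered WTp53 against 10.89, 10.91 and 10.93 with WTp53 and 10.87, 10.72 and 10.80 with vector (-0.53 ± 0.05, adjusted p = 4.12e-05). The import genes TIMM10 and TIMM17A fell by 0.61 and 0.58, and the mitochondrial single-strand DNA-binding protein SSBP1 by 0.41. The spread of all 18 arrays left 22 of the mitochondrial ribosomal genes and 11 of the biogenesis genes called lower. Of the genes for cytosolic ribosomal proteins 23 of 64 fell (35.9%) and 0 rose, with a median of -0.10. The falls numbered 11 after quantile normalization, 15 without WTp53 array e and 4 with the spread of all 18 arrays. Among the 9731 probe sets at or above the median level 3329 fell, a share near that of these genes.

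Small noncoding RNAs made up 8 of the 15 largest falls. Small nucleolar RNAs guide chemical marks on ribosomal RNA, C/D box members for methylation and H/ACA members for pseudouridine, and small Cajal body RNAs do so on spliceosomal RNAs. Of 77 H/ACA and Cajal body RNAs 47 fell (61.0%, beside 17.4% of all genes) and 2 rose (median -0.33). Of the falls 13 were at least 1.5-fold, beside 0.653% of all probe sets. Of 115 C/D box RNAs 38 fell (33.0%) and 1 rose (median -0.13), again with 13 falls of at least 1.5-fold. With the spread of all 18 arrays, 28 of the H/ACA and 23 of the C/D box RNAs were called lower. SNORD50B was at 7.97, 8.09 and 8.08 with tethered WTp53, at 9.02, 8.92 and 9.11 with WTp53 and at 9.08, 8.82 and 8.85 with vector. WTp53 and vector overlapped, and the tethered arrays lay 0.97 lower than WTp53 (-0.97 ± 0.07, adjusted p = 2.28e-05). For the H/ACA list, WTp53 against vector gave 35 rises and 5 falls (median 0.18), beside 17.7% and 18.6% of all probe sets. Tethered WTp53 against vector gave a median of -0.07.

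Most small nucleolar RNAs are cut from introns of host genes, so a host was read beside its RNAs. RPL23A, a ribosomal protein gene, hosts SNORD4A, SNORD4B and SNORD42A. SNORD4B was at 8.48, 8.99 and 8.56 with tethered WTp53, at 9.95, 9.92 and 10.04 with WTp53 and at 9.28, 9.20 and 9.35 with vector, a difference of -1.29 ± 0.11 (adjusted p = 3.46e-05). SNORD42A fell by 0.99 and SNORD4A by 0.78. The RPL23A probe sets differed by -0.18 and -0.14. All 3 small RNAs were separated from WTp53 by more than their host, although the difference between host and RNA was not tested.

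A trio of small RNAs made by RNA polymerase III, the vault RNAs VTRNA1-1, VTRNA1-2 and VTRNA1-3, were among the 15 largest falls. VTRNA1-2 was at 5.66, 5.45 and 6.51 with tethered WTp53, at 7.49, 7.23 and 7.18 with WTp53 and at 6.27, 6.0 and 6.36 with vector. Array f stood apart from d and e, and the tethered values spanned the vector values; the difference from WTp53 was -1.43 ± 0.22 (adjusted p = 0.000873) and -1.75 without array f. VTRNA1-3 differed by -1.29 ± 0.27 and VTRNA1-1 by -1.11 ± 0.17. Further polymerase III RNAs, RPPH1 of ribonuclease P and RMRP, differed by -0.44 and -0.19.

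The largest fall of all was LIMD1-AS1, an antisense RNA at the LIMD1 locus. Its values were 5.84, 6.37 and 7.34 with tethered WTp53, 8.23, 8.13 and 8.49 with WTp53, and 7.18, 6.81 and 7.59 with vector. The tethered arrays were spread over more than 1 log2 unit, with f highest, and the difference of -1.77 ± 0.32 (adjusted p = 0.00186) was -2.18 without f. LIMD1 itself rose by 0.43 ± 0.08. The other falls among the 15 were SNORD114-3 (-1.42), SH3KBP1 (-1.07), SCARNA9L (-1.02), SNORD42A, SELENOP (-0.98), CYP4F2 (-0.91), MTND2P28 (-0.84), GDF9 and PBK. A second SH3KBP1 probe set was also called lower, by 0.23, so the size of the fall is uncertain for this gene. The gene assignment of the first comes from the platform annotation and was not checked. GDF9, an oocyte growth factor of the TGF-beta family, was at 7.12, 7.09 and 7.0 with tethered WTp53, at 8.07, 8.05 and 8.05 with WTp53 and at 5.90, 6.23 and 6.36 with vector (-0.99 ± 0.09, adjusted p = 6.29e-05). PBK, a mitotic kinase, was at 7.89, 7.78 and 7.87 against 8.72, 8.63 and 8.69 with WTp53 and 8.73, 8.61 and 8.68 with vector (-0.83 ± 0.05, adjusted p = 6.44e-06).

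**Figure D4:**
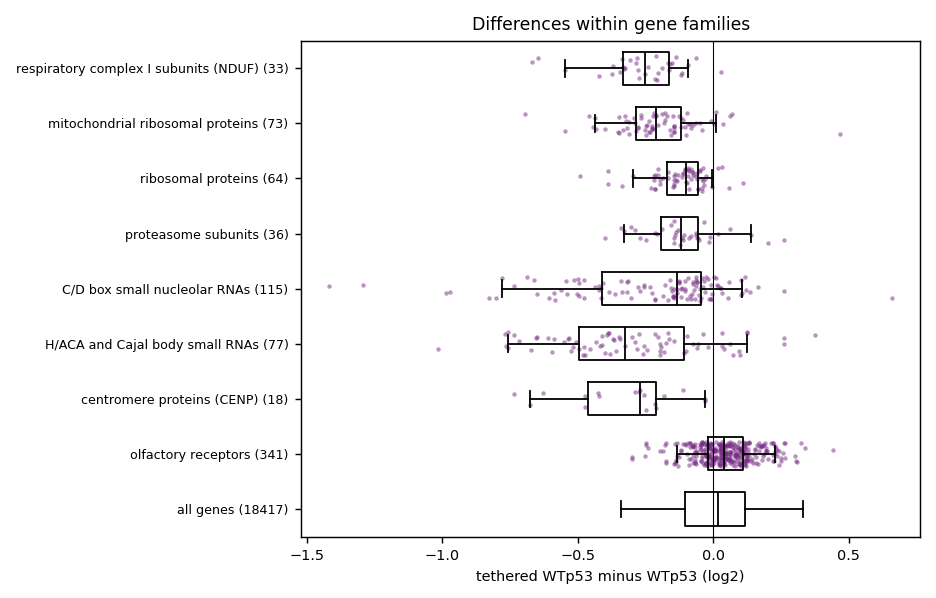
Tethered WTp53 minus WTp53 (log2) for members of 8 gene families (points, 1 per gene) and for all 18417 genes (box only); boxes span the quartiles with the median line, and whiskers reach the 5th and 95th percentiles. Complex I, mitochondrial ribosomal, CENP and H/ACA members lie mainly left of 0, with medians of -0.25, -0.21, -0.27 and -0.33, and the C/D box family has the longest tail.

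Nutrient and growth factor signalling moved in parts. The mTOR kinase complexes couple amino acids and insulin to growth. Of 29 genes for these complexes and their regulators 14 fell (48.3%) and 3 rose (10.3%), with a median of -0.13. Among all genes 17.4% fell and 14.7% rose. LAMTOR3, a scaffold subunit that brings mTORC1 to lysosomes, was at 8.55, 8.70 and 8.76 with tethered WTp53, at 9.40, 9.33 and 9.34 with WTp53 and at 9.45, 9.39 and 9.50 with vector (-0.69 ± 0.06, adjusted p = 3.24e-05). MTOR fell by 0.20 and RPTOR by 0.33. The fit over all 18 arrays left 4 of the falls. The rises included NPRL2, a subunit of the GATOR1 inhibitor of mTORC1, at 10.64, 10.51 and 10.37 against 9.64, 9.64 and 9.58 with WTp53 and 8.71, 8.69 and 8.67 with vector (0.89 ± 0.06, adjusted p = 1.39e-05). DDIT4, another inhibitor of mTORC1, rose by 0.62 ± 0.09.

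In the list for IGF and insulin signalling, 6 of 18 genes rose (33.3%) and 2 fell (11.1%), with a median of 0.13. Among all genes 14.7% rose and 17.4% fell. The receptor genes IGF1R and INSR rose by 0.50 and 0.33, and PIK3R1, the regulatory subunit of phosphoinositide 3-kinase, by 0.46. A second IGF1R probe set differed by 0.18 and was not called. AKT2 fell by 0.25 and PDPK1 by 0.18. Another PDPK1 probe set fell by 0.20, while further ones at -0.03 were not called. In the autophagy and lysosome list 12 of 29 fell (41.4%) and 2 rose (6.9%), with a median of -0.09. TFEB, the master regulator of lysosomal genes, rose by 0.72 ± 0.06, and the conjugation genes ATG16L1 and ATG10 fell by 0.43 and 0.37. That count of falls was 7 and 6 without WTp53 array e or f, and 4 with the spread of all 18 arrays. For the IGF and insulin list that spread left 2 rises and 1 fall.

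Stress and secreted factors had mixed lists. In the integrated stress response, which works through ATF4, 5 of 28 rose (17.9%) and 5 fell (17.9%) with a median of 0.00. These shares were near the 14.7% and 17.4% of all genes. The rises were CHAC1, ATF3 (0.85), the proapoptotic factor DDIT3 (0.65), DDIT4 and CEBPB (0.28). ATF4 itself fell by 0.17, the cystine transporter SLC7A11 by 0.53 ± 0.04 and the asparagine synthetase ASNS by 0.21. After quantile normalization 10 of the 28 rose. With the spread of all 18 arrays 3 rose and 0 fell, and neither DDIT3 (adjusted p = 0.0559) nor SLC7A11 (0.0841) was called. DDIT3 was at 11.01, 11.05 and 11.02 with tethered WTp53, below the 11.62, 11.48 and 11.65 of vector and above the 10.38, 10.46 and 10.28 of WTp53.

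Notch genes, which carry signals between neighbouring cells, had 8 rises (42.1%) and 0 falls in 19 (median 0.11), beside 14.7% and 17.4% of all genes. With the spread of all 18 arrays 1 rose. The 8 rises are listed next. They comprised the ligands JAG2 (0.61), JAG1 (0.31), DLL1 (0.28) and DLL4 (0.28), the receptors NOTCH1 (0.45) and NOTCH3 (0.29), the target HEYL (0.41) and the coactivator MAML2 (0.24). In the list of YAP and TEAD targets and matrix genes 10 of 23 rose and 3 fell (median 0.11). The proteoglycan gene VCAN rose by 0.84 ± 0.06, the integrin ITGA2 by 0.91 and CCN1 by 0.62, while ANKRD1 fell by 0.65 ± 0.05 and CCN2 by 0.24. The fit over all 18 arrays left 6 rises and 1 fall.

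Hypoxia and interferon genes depended on tethered array f. In the glycolysis and hypoxia list 6 of 25 rose and 1 fell (median 0.06); array f was the lowest tethered array in 23 of the 25, and without it 12 rose. HK2, a hexokinase, was at 10.88, 10.97 and 10.41 with tethered WTp53 and at 10.31, 10.42 and 10.15 with WTp53. Of 28 interferon-stimulated genes 3 rose (10.7%) and 1 fell (3.57%), beside 14.7% and 17.4% of all genes. Array f was the highest tethered array in 24 of the 28. The list median was -0.12 and -0.04 on arrays d and e and 0.44 on array f. CXCL10, a chemokine induced by interferon, was at 6.91, 6.89 and 10.27 with tethered WTp53, at 7.70, 8.15 and 7.85 with WTp53 and at 5.04, 4.81 and 5.27 with vector. OAS2, an antiviral RNA sensor, was at 8.66, 8.80 and 10.38, against 9.26, 9.29 and 9.36 with WTp53. Arrays d and e thus lay below WTp53 for both genes and array f above it, and neither gene was called. Without array f, 3 of the 28 rose and 9 fell, with a median of -0.05. IRF1 rose with and without it. In the same list WTp53 against vector gave 23 rises and 0 falls (median 1.35), beside 17.7% and 18.6% of all probe sets.

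**Figure D5:**
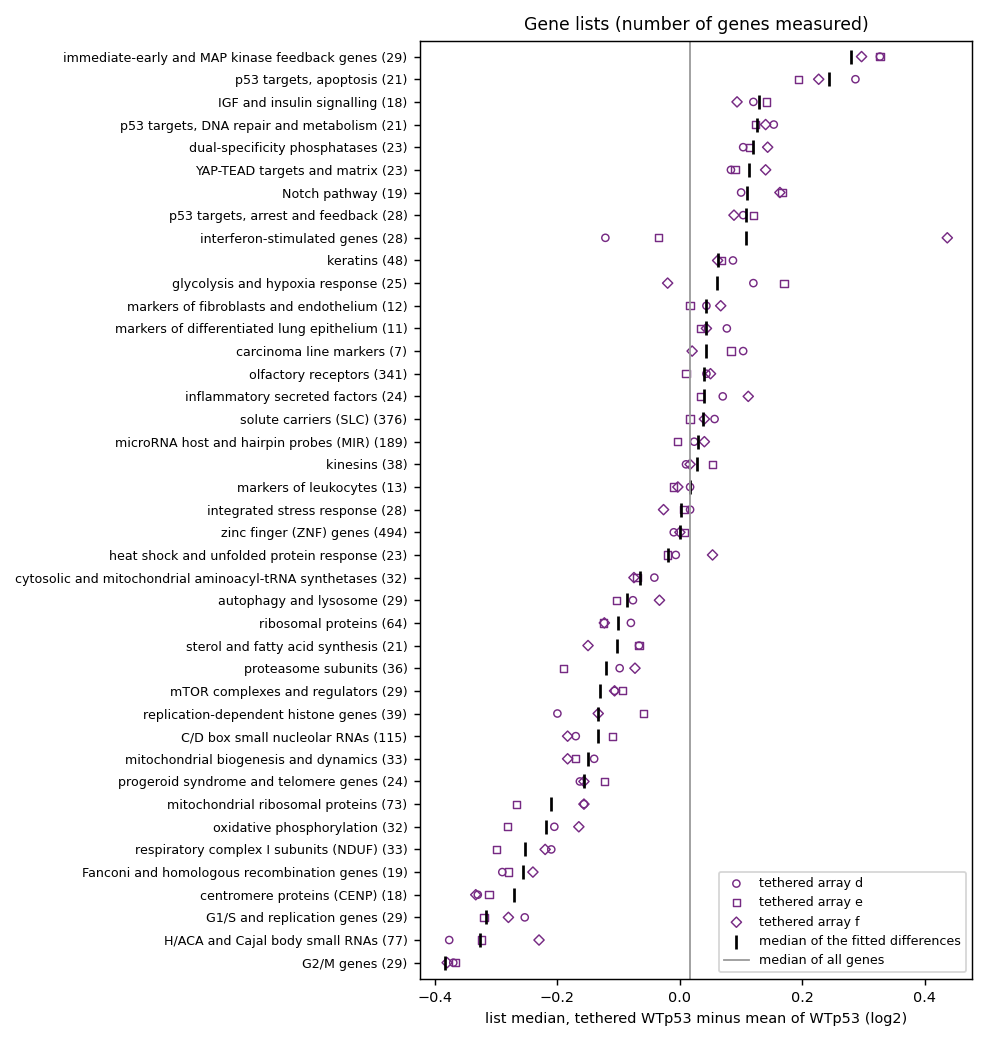
Median tethered WTp53 minus WTp53 difference (log2) of each list and family, for the fit (bar) and for each tethered array against the mean of the 3 WTp53 arrays (circle d, square e, diamond f); the grey line is the median of all 18417 genes. The 3 symbols lie close together for most lists, from -0.38 for G2/M genes to 0.28 for immediate-early genes, and apart for the interferon-stimulated genes, at -0.12, -0.04 and 0.44.

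Markers of other cells gave little movement. Of 13 leukocyte markers 0 rose and 1 fell, the B cell gene CD79A (-0.32), and of 12 markers of fibroblasts and endothelium and 11 of differentiated lung epithelium 0 were called. The mean over the leukocyte markers was 6.62 to 6.71 on the tethered arrays and 6.65 to 6.72 on the WTp53 arrays. For fibroblasts and endothelium the ranges were 6.09 to 6.15 and 6.07 to 6.11, and for lung epithelium 6.67 to 6.70 and 6.59 to 6.64. Of 7 genes typical of carcinoma lines 2 rose, N-cadherin (CDH2) by 0.28 and KRT19 by 0.22. The KRT19 values overlapped between the groups (adjusted p = 0.0463), and its call was lost in 13 of the 19 alternatives that gave it a value. Without tethered array f, 1 of the 7 rose, 1 lung epithelium marker rose and 2 leukocyte markers fell. These values carry no detection call, so absence of a marker cannot be stated, and for bulk RNA fewer cells of a kind and less RNA per cell cannot be told apart.

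The other set of experiments (0, 4 and 5) compared ΔNp53:WTp53 with WTp53 on separate arrays that were normalized apart, so only differences can be set side by side. Of the 15 largest rises 11 were higher there too, with a median of 0.56, and of the 15 largest falls 13 were lower, with a median of -0.37. The median there over all genes was -0.01. Differences of that set are given without calls, and their SE varied. It was 0.09 for NDUFB6 (difference -0.42) and 0.40 for CENPI (difference -1.04). CHAC1 differed by 1.51 there, PLK3 by 1.27 and PBK by -0.93, whereas GDF15 differed by -1.23 and GDF9 by -2.62. The list medians there were -0.94 for G2/M genes, -0.41 for G1/S and replication genes, 0.26 for immediate-early genes, -0.13 for NDUF genes and -0.02 for H/ACA and Cajal body RNAs. For the p53 target lists they were -0.10 for arrest, -0.14 for apoptosis and -0.05 for repair and metabolism, opposite in sign to the medians of tethered WTp53. Further lists of opposite sign included histones (0.09), mitochondrial biogenesis (0.02), kinesins (-0.09) and keratins (-0.03), several of them near 0.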

How the data were processed

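RNA levels were read on Affymetrix Gene arrays. Per the submitters' processing notes, the deposited values are log2 intensities that the authors normalized with RMA in Affymetrix Expression Console; the versions, genome build and filters are not given in the sources used here. Experiments d, e and f were normalized apart from the others, so levels were not compared across sets.

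Of 33297 rows, 19460 had exactly 1 gene symbol in the platform annotation, 1754 had several and 12083 were not listed; 18417 genes resulted, 769 with more than 1 probe set, and the probe set with the highest mean over 9 arrays represented a gene. limma 3.58.1 under R 4.3.3 fitted the 9 arrays of these experiments with a mean per group (6 residual and 4.39 prior degrees of freedom), which leaves the spread of the other set out. Tests were two-sided with Benjamini-Hochberg adjustment over all 19460 rows and a threshold of 0.05; the script was tested on simulated data.

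Genes named were CDKN1A, MDM2, the 15 largest rises and 15 largest falls that were called and did not overlap between groups, and, from each list, at most 4 members, those of smallest p. Others named, the helicase, centromere network and host gene sets, and the CHR search were chosen after their values were seen. The comparison, 26 lists (614 of 663 members measured) and 15 symbol families were chosen with earlier results of these data known. Promoter windows are RefSeq's. Whether letters d, e and f pair arrays was checked from residual correlations, which were -0.04 to 0.13 for the same letter and -0.22 to 0.16 for other letters, so the letters were treated as labels. The probe set of the transfected gene is not reported here.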

Additional observations from a re-analysis of the deposited data

How the results depend on the processing

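Results were recomputed under up to 20 alternatives, 1 of them (the spread from the tethered and vector arrays alone, 5431 probe sets called) added after the data were seen. With 1 spread over all 18 arrays, 1934 probe sets were called in place of 6213 and 3731 in place of 7072 for WTp53 against vector; at least 1.5-fold changes numbered 312 in place of 361. The 6 compared arrays alone gave 5468, arrays centred on their medians 6280 (2275 up, 4005 down), quantile normalization 5658, all deposited rows 5140 and the replicate block by letter 6227. Leaving out 1 array gave 4601 to 6018 called probe sets, and 302 to 447 changed at least 1.5-fold. Of 185 named genes 0 reversed direction under any alternative; 58 lost their call with the spread of all 18 arrays, and at most 4 under any other. Of the 30 largest changes 22 had a value under all 20 alternatives and the other 8, which the filter on dim probe sets removes, under 19. Of the 30, 29 were called wherever they had a value, and SELENOP was not with the spread of all 18 arrays (adjusted p = 0.0583). With 3 arrays a group, the number of arrays limits the precision.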

Other observations

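Large gene families outside the lists above moved in both directions or little. Of 494 zinc finger (ZNF) genes, many of them transcriptional repressors, 86 rose (17.4%) and 104 fell (21.1%), with a median of 0.00. The shares over all genes were 14.7% and 17.4%. ZNF555 rose from 8.59, 8.53 and 8.57 with WTp53 to 9.66, 9.63 and 9.36 with tethered WTp53 (0.99 ± 0.07, n = 3, limma adjusted p = 1.48e-05). Of 376 solute carriers 56 rose (14.9%) and 48 fell (12.8%), beside 14.7% and 17.4% of all genes. Their largest rise was SLC30A10, a manganese exporter, at 8.42, 8.33 and 8.40 with tethered WTp53, at 7.33, 7.34 and 7.34 with WTp53 and at 6.03, 6.06 and 6.06 with vector, so the 3 groups were fully separate (1.05 ± 0.04, adjusted p = 4.72e-07). SLC4A11, a borate and proton transporter homologue, rose by 0.78 (adjusted p = 0.102 with the spread of all 18 arrays). Of 38 kinesins 12 fell and 8 rose: the mitotic motors KIF15 (-0.53), KIF18A (-0.47) and KIF23 (-0.45) fell, and KIF13A, a vesicle motor, rose by 0.37. With the spread of all 18 arrays 0 of the kinesins fell and KIF13A was the 1 that rose; the adjusted p of limma's fit was 0.243 for KIF15, 0.275 for KIF18A and 0.43 for KIF23. The count of kinesin rises was 5 without tethered array d or WTp53 array f.

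Of 36 proteasome subunits 13 fell (36.1%) and 1 rose (median -0.12), with PSMD12 at -0.40. The falls numbered 7 after quantile normalization or without WTp53 array f. Among the 9731 probe sets at or above the median level 3329 fell, a share near that of these subunits. Of 32 aminoacyl-tRNA synthetases 6 fell (18.8%) and 3 rose (9.4%). Of 21 sterol and fatty acid synthesis genes 5 fell (23.8%) and 1 rose (4.8%). In that list 9 fell with arrays centred on their medians, and 3 without array f of either group. Of 23 heat shock and unfolded protein genes 4 rose (17.4%) and 1 fell (4.3%). The synthetase falls and heat shock rises were near the 17.4% and 14.7% of all genes, and the other shares were not. In the inflammatory list, the growth factor TGFA (0.75 ± 0.06) and the protease PLAU (0.51 ± 0.05) rose and TNFAIP3 fell by 0.34; 6 of 24 rose, 2 without tethered array f or WTp53 array f, and 3 without tethered array d; falls numbered 5 without tethered array f. Among these, PLAU (adjusted p = 0.214) and TNFAIP3 (0.0907) were not called with the spread of all 18 arrays. Of 189 microRNA hairpins and host genes 9 rose (4.76%) and 8 fell (4.23%), with the host gene MIR22HG at -0.58. Over all genes 14.7% rose and 17.4% fell. Among 341 olfactory receptors, which work in nasal neurons, 22 rose (6.45%) and 3 fell (0.88%), with a median of 0.04. With arrays centred on their medians 10 rose and 7 fell. The rises numbered 6 without WTp53 array f, 7 without tethered array d, 10 without WTp53 array e and 14 without tethered array f. Of 48 keratins 6 rose (12.5%) and 1 fell. The rises numbered 2 or 3 without tethered array f or d or WTp53 array e or f, and 10 without WTp53 array d.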
